A study of Mus musculus with 18 samples.

Results

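The measurements concern 10 genes of interleukin-6 (IL-6) family signalling and the acute phase response in inguinal fat of tumour-bearing mice. They are the receptors Osmr, Il6ra and Il6st, the transducer Stat3, the inhibitor Socs3, the transcription factors Cebpb and Cebpd, and the secreted proteins Lrg1, Saa3 and Orm1. The genes were taken by symbol, each matched 1 row, and they are 10 of the 21899 gene rows in the tables. The 10 genes and the gene lists used below were chosen with earlier results of these data known. Counts set beside all genes are therefore descriptions and not independent tests. RNA of inguinal white adipose tissue, the subcutaneous fat depot of the groin, was sequenced from male C57BL/6J mice. At day 21 after a subcutaneous injection, the stage called cachexia, there were 5 libraries from mice given Lewis lung carcinoma (LLC) cells and 4 from mice given phosphate-buffered saline (PBS). At day 7, the stage called pre-cachexia, there were again 5 LLC libraries and 4 PBS libraries. No genetic change is named for any group, LLC is a single transplanted mouse lung tumour line, and the sources used here do not say whether each library came from 1 mouse, so p-values measure the spread between libraries.

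IL-6 family cytokines act through receptors that share the chain gp130, the product of Il6st. Il6ra encodes the receptor that binds IL-6, and Osmr the chain that pairs with gp130 to bind oncostatin M. Ligand binding activates Janus kinases, which phosphorylate STAT3, and STAT3 switches on Socs3, whose product shuts the same receptor complex down. In the liver this pathway, with C/EBPβ and C/EBPδ, drives the acute phase proteins, and fat also makes several of them. Orm1 encodes orosomucoid, Saa3 a serum amyloid A protein made outside the liver, and Lrg1 a secreted leucine-rich glycoprotein.

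The promoter sequences show which members carry, close to their start, the letters that STAT and C/EBP proteins are known to bind. RefSeq promoter sequence (GRCm38) was matched for 8 of the 10 genes, all but Cebpd and Orm1. The 250 bases before each start were searched on both strands for TTCNNNGAA, the STAT motif, and for TTGCNNAA or its reverse complement TTNNGCAA, the C/EBP motif. The STAT motif was found in 1 of the 8, Socs3, 154 to 146 bases before the RefSeq start, and in 7.02% of 32851 promoter windows of the same length. The C/EBP motif was found in 1 of the 8, Saa3, 99 to 92 bases before the RefSeq start, and in 9.56% of the windows. The starts are those of RefSeq, and for Cebpb, Il6ra, Il6st and Stat3 they are also the GENCODE gene starts. For Socs3 the RefSeq start lies 681 bases inside the GENCODE gene, which includes non-coding transcripts, and 180 bases before the start of its protein-coding transcript. For Osmr, Lrg1 and Saa3 it lies 656, 55 and 24 bases inside the gene. Both genes with a match lie on the minus strand, and the windows, chr11:117969367-117969616 and chr7:46715677-46715926, are printed 5′ to 3′ with the motif in capitals. A match is a description of letters, not of a bound site, and Osmr, Il6ra, Il6st, Stat3, Cebpb and Lrg1 had neither set of letters in this window.
Socs3: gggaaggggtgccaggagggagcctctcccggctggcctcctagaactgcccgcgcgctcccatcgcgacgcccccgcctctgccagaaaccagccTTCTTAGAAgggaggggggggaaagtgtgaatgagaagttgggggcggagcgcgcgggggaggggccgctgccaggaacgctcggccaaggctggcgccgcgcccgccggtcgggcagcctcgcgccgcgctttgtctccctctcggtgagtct
Saa3: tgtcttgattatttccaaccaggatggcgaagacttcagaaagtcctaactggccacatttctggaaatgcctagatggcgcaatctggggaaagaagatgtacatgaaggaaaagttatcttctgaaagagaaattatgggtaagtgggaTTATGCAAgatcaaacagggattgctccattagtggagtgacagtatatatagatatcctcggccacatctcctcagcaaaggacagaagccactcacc

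Positions of the 10 genes follow GENCODE annotation of GRCm38. The receptor genes are Osmr at chr15:6813577-6874969, Il6ra at chr3:89864059-89913196 and Il6st at chr13:112464070-112510086. Stat3 lies at chr11:100885098-100939540, and Socs3, on the same chromosome, at chr11:117966079-117970047. Cebpb lies at chr2:167688915-167690418 and Cebpd at chr16:15887286-15891031. Lrg1 lies at chr17:56119678-56122001, Saa3 at chr7:46711998-46715700 and Orm1 at chr4:63344560-63348163. The counts are per gene and do not separate transcripts.

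Summed counts per library ran between 14566155 and 18969387, with 15516 to 16232 genes detected, and levels are given as CPM (counts scaled to a fixed total per library) scaled by TMM over all 18 libraries. The tissue carried adipocyte genes in every library, with the lowest sum of 13 adipocyte markers at 22320.2 CPM. Several libraries stood apart within their group. Day 21 PBS library 4 and day 21 LLC library 1 held 18085 and 16118 CPM of 12 adipose progenitor and fibroblast markers, against 2886 to 6572 CPM in the other day 21 libraries. Day 21 LLC library 3 held 1606 CPM of 8 B cell and lymph node markers, against at most 15.7 CPM in any other library. The sum of 9 skeletal muscle markers was uneven, at 2084 CPM in day 21 LLC library 2 and 3.19 to 564 CPM in the other 4, and at 4673 and 1045 CPM in day 21 PBS libraries 1 and 2 and 66.4 and 7.80 CPM in the other 2. At day 7 it was 1579 CPM in LLC library 3 and at most 55.4 CPM in the others, and 6679 CPM in PBS library 3 and at most 28.2 CPM in the others. In bulk tissue, fewer cells of a type and less RNA per cell cannot be told apart.

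Per unit of transcript length, in TPM (transcripts scaled to a fixed total per library), the members spanned a wide range of mean level over the 18 libraries. Lrg1 was highest with 501 TPM, followed by Orm1 with 314 TPM, Cebpb with 130 TPM, Il6st with 116 TPM and Stat3 with 65.9 TPM. Osmr, Cebpd, Il6ra, Saa3 and Socs3 had 25.5, 25.2, 17.4, 16.9 and 10.7 TPM. The mean of Saa3 rested on few libraries, which ran between 0.217 and 206 TPM.

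In day 21 fat, LLC libraries averaged above PBS libraries for 8 of the 10 genes and below for 2. The median log2 fold change over the 10 was 0.67, beside 0.02 over the 13564 genes tested. None of the 10 passed edgeR's quasi-likelihood test of that day's libraries at an adjusted p of 0.05, which 0.0885% of all genes tested passed. By unadjusted p under 0.05, 9 of the 10 passed, 7 higher and 2 lower, beside 23.3% of all genes. As the 10 were chosen with earlier results of these data known, this contrast is a description only. DESeq2 called 6 of the 10, Osmr, Il6ra, Il6st, Socs3 and Stat3 as higher and Orm1 as lower, beside 11.4% of all genes. A single edgeR fit of all 18 libraries called these and Cebpd, 7 of the 10, beside 19.0% of all genes. limma on log2(TPM + 1) called Orm1 alone, beside 0.45% of all genes. The authors' deposited table gave 7 of the 10 a false discovery rate (FDR) under 0.05 at day 21, beside 5.29% of its genes. In CPM the groups did not overlap for 5 genes that were higher in LLC and for 1 that was lower. Over all genes the shares were 5.23% higher and 4.47% lower, and 9.7% in either direction. In TPM the Il6st groups overlapped, and those of Il6ra, which overlapped in CPM, did not.

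At day 7, 8 genes were higher and 2 lower, with a median log2 fold change of 0.34, beside 0.00 over the 13445 genes tested. edgeR called 0 of the 10, beside 0.00744% of all genes, and 4 of the 10 had an unadjusted p under 0.05, beside 8.51%. DESeq2 called Cebpb and Lrg1, beside 0.692% of all genes, limma on log2(TPM + 1) called none, beside 0.00744%, and the 18-library edgeR fit called none, beside 0.0%. The authors' deposited table also had 2 of the 10 at an FDR under 0.05 at day 7, Cebpb and Lrg1, beside 0.21% of its genes. In CPM, Lrg1 was the only gene of the 10 whose groups did not overlap at day 7, with LLC higher. Over all genes the share was 1.18% in that direction and 2.52% in either. In TPM the Lrg1 groups overlapped, with the lowest LLC library at 427 TPM and the highest PBS library at 450 TPM. Those of Cebpb did not overlap in TPM, at 136 TPM in the lowest LLC library and 130 TPM in the highest PBS library. Without PBS library 3 and LLC library 3, the day 7 libraries highest in muscle markers, edgeR again called 0 of the 10 and 0 of all genes.

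**Figure D1:**
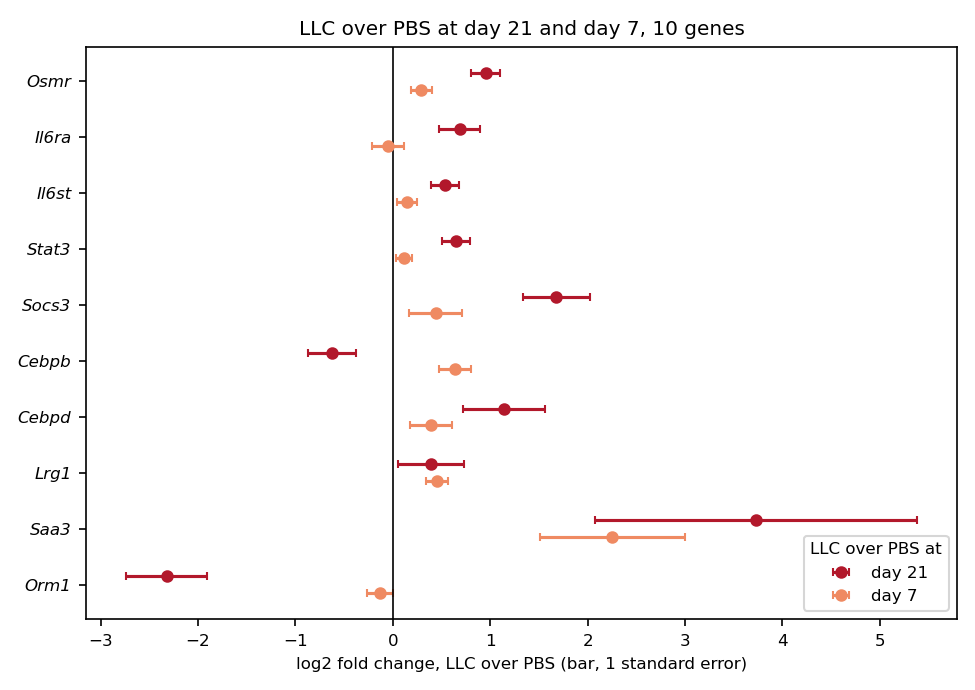
Log2 fold change of LLC over PBS on the x axis for the 10 genes on the y axis, at day 21 (dark red, above) and day 7 (orange, below), from edgeR fits of each day, with bars of 1 standard error. Socs3, Osmr, Stat3, Il6ra, Il6st and Cebpd lie further to the right at day 21, Orm1 lies at -2.32 at day 21 and at -0.13 at day 7, and Cebpb changes side.

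Osmr, the oncostatin M receptor chain, was higher in LLC fat at day 21, with little spread within either group. It stood at 106, 83.6, 81.1, 88.8 and 118 CPM in day 21 LLC libraries 1 to 5, against 46.3, 49.9, 41.3 and 57.1 CPM in day 21 PBS libraries 1 to 4. Every LLC library was above every PBS library, and LLC was 1.94-fold higher, a log2 difference of 0.95 ± 0.15 (SE; adjusted p = 0.0526) by edgeR. Of 21 alternative settings 7 called it, among them the edgeR fits without day 21 PBS library 4 and without LLC library 2, with adjusted p between 2.66e-06 and 0.211. Without LLC library 2 Osmr was the 1 gene of the 10 called, beside 0.709% of all genes. At day 7 it stood at 70.8, 84.4, 75.9, 71.3 and 96.7 CPM in LLC libraries, against 57.9, 71.0, 64.6 and 67.5 CPM in PBS libraries, with groups that met at 70.8 and 71.0 CPM. The day 7 log2 difference was 0.29 ± 0.10 (SE; adjusted p = 0.502) by edgeR, in the same direction. By group mean Osmr ran in the order day 21 LLC, day 7 LLC, day 7 PBS and day 21 PBS, where only the last step was free of overlap.

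Il6ra, the IL-6 binding chain, stood at 62.3, 68.1, 54.2, 95.9 and 59.5 CPM in day 21 LLC libraries, against 35.2, 45.3, 31.1 and 55.0 CPM in day 21 PBS libraries. LLC library 3, at 54.2 CPM, lay just below PBS library 4, at 55.0 CPM, and the other LLC libraries were above all PBS libraries. In TPM the groups did not overlap, at 16.4 TPM in the lowest LLC library and 15.4 TPM in the highest PBS library. The log2 difference was 0.69 ± 0.21 (SE; adjusted p = 0.113) by edgeR. At day 7 Il6ra averaged 54.8 ± 9.63 CPM in LLC libraries and 57.0 ± 12.7 CPM in PBS libraries (SD, n = 5 and 4), a log2 difference of -0.05 ± 0.17 (SE; adjusted p = 0.962). The gene overlaps an antisense gene, Gm42809, by 281 bases, and the library protocol in the labels does not name strand marking, so reads of the pair cannot be told apart there.

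Il6st, the shared signalling chain gp130, stood at 509, 395, 418, 370.3 and 471 CPM in day 21 LLC libraries, against 274, 264, 323 and 317 CPM in day 21 PBS libraries. In CPM the groups did not overlap, although the lowest LLC library and the highest PBS library were only 370.3 and 323 CPM. In TPM they overlapped, with LLC library 4 at 78.0 TPM and PBS library 4 at 88.2 TPM. The log2 difference was 0.54 ± 0.14 (SE; adjusted p = 0.0914) by edgeR, the smallest of the 3 receptor chains. At day 7 the level was 407 ± 52.8 CPM in LLC libraries and 368 ± 22.6 CPM in PBS libraries (SD, n = 5 and 4), a log2 difference of 0.15 ± 0.10 (SE; adjusted p = 0.737).

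Stat3, the transcription factor that the receptors activate, stood at 196, 177, 164, 213 and 259 CPM in day 21 LLC libraries, against 125, 126, 122 and 134 CPM in day 21 PBS libraries. PBS libraries kept within 122 to 134 CPM and every LLC library was above them. The log2 difference was 0.65 ± 0.14 (SE; adjusted p = 0.0708) by edgeR. At day 7 the level was 150.3 ± 13.9 CPM in LLC libraries and 139 ± 7.54 CPM in PBS libraries (SD, n = 5 and 4), a log2 difference of 0.12 ± 0.08 (SE; adjusted p = 0.743). Stat3 overlaps the end of Stat5a on the other strand by 72 bases, and Stat5a went the other way at day 21, with a log2 difference of -0.61 ± 0.19 (SE; adjusted p = 0.112, edgeR).

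Socs3, the feedback inhibitor that STAT3 is known to induce and whose promoter holds the STAT letters printed above, had a larger fold difference at day 21 than the receptors or Stat3. It stood at 45.5, 15.2, 18.9, 20.2 and 17.9 CPM in day 21 LLC libraries, against 8.97, 8.12, 6.00 and 5.90 CPM in day 21 PBS libraries. Every LLC library was above every PBS library, and LLC library 1 lay far above the other 4. The mean was 3.20-fold higher in LLC by the fitted log2 difference of 1.68 ± 0.34 (SE; adjusted p = 0.0638), edgeR. Without LLC library 1 the log2 difference was 1.34 ± 0.18 (SE; adjusted p = 0.0383, edgeR), and Socs3 was then the 1 gene of the 10 called, beside 0.179% of all genes. Of 21 alternative settings 7 called Socs3, with adjusted p between 0.000218 and 0.216. At day 7 Socs3 stood at 7.36, 23.4, 11.6, 12.3 and 12.4 CPM in LLC libraries, against 9.76, 10.8, 7.95 and 11.2 CPM in PBS libraries, with LLC library 1 below all of the PBS libraries and LLC library 2 above the rest. That log2 difference was 0.44 ± 0.27 (SE; adjusted p = 0.712) by edgeR.

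**Figure D2:**
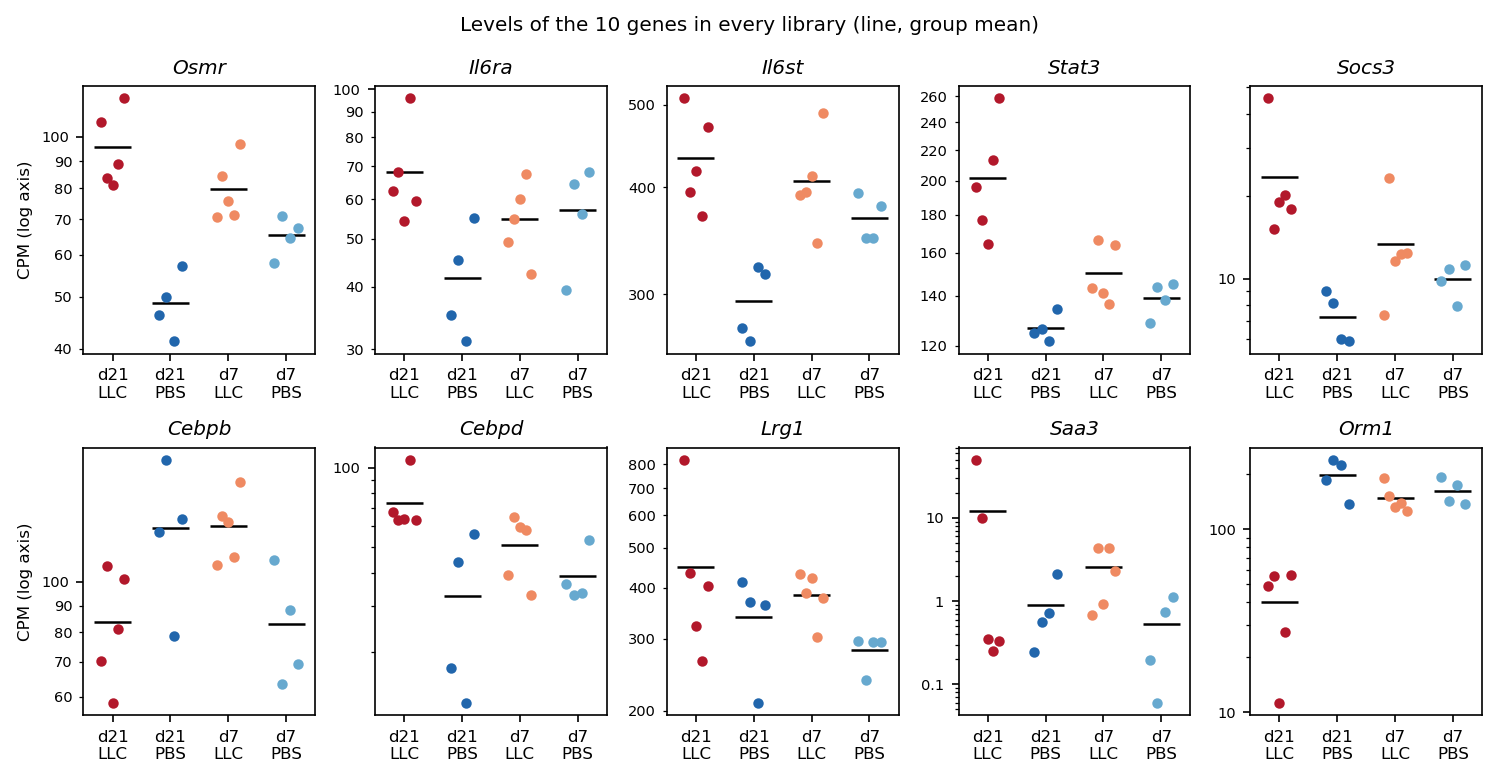
CPM (log y axis, own scale in each panel) of the 10 genes in every library, by group on the x axis: day 21 LLC, day 21 PBS, day 7 LLC and day 7 PBS, with lines at the group means. Osmr, Il6st, Stat3, Socs3 and Cebpd are higher in all 5 day 21 LLC libraries than in the 4 day 21 PBS libraries, Orm1 is lower in all 5, and Saa3 is high in 2 of 5.

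Cebpb, which encodes C/EBPβ, a factor of fat cell formation and of acute phase genes, took opposite directions at the 2 days. It stood at 70.4, 107, 58.3, 81.1 and 101 CPM in day 21 LLC libraries, against 125, 173, 78.4 and 132 CPM in day 21 PBS libraries. It stood at 108, 134, 131, 112 and 156 CPM in day 7 LLC libraries, against 110.1, 63.6, 88.4 and 69.3 CPM in day 7 PBS libraries. At day 21 LLC was lower, with PBS library 3 among the LLC values, and at day 7 LLC was higher, with PBS library 1 among the LLC values. The log2 differences were -0.62 ± 0.24 (SE; adjusted p = 0.169) at day 21 and 0.63 ± 0.16 (SE; adjusted p = 0.399) at day 7, both by edgeR. The day 21 difference minus the day 7 difference was -1.23 ± 0.31 (SE; adjusted p = 0.0746, edgeR), and 3 of 27 alternative settings called it, those of DESeq2 and of edgeR without day 21 PBS library 4 or without day 21 LLC library 2. Cebpb shares 908 bases with Tmem189 on the other strand, whose log2 differences were -0.15 ± 0.11 at day 21 and -0.12 ± 0.07 at day 7 (SE).

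Cebpd, which encodes C/EBPδ, stood at 68.1, 63.1, 63.9, 107 and 63.4 CPM in day 21 LLC libraries, against 17.5, 44.0, 12.8 and 56.2 CPM in day 21 PBS libraries. The groups did not overlap, 4 of the LLC libraries lay within 63.1 to 68.1 CPM, and PBS libraries 1 and 3 were well below PBS libraries 2 and 4. The log2 difference was 1.14 ± 0.42 (SE; adjusted p = 0.150) by edgeR. At day 7 the level was 50.9 ± 14.0 CPM in LLC libraries and 38.9 ± 9.56 CPM in PBS libraries (SD, n = 5 and 4), a log2 difference of 0.39 ± 0.21 (SE; adjusted p = 0.671). Cebpd shares 1808 bases with Spidr on the other strand, and Spidr differed by 0.46 ± 0.15 on the log2 scale at day 21 (SE; adjusted p = 0.119, edgeR).

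Lrg1, a secreted glycoprotein of the acute phase, was the 1 member whose groups, in CPM, were separate at day 7 and overlapped at day 21. In TPM its groups overlapped at both days. At day 21 it stood at 821, 435, 322, 265 and 404 CPM in LLC libraries, against 412, 369.7, 209 and 363 CPM in PBS libraries. LLC library 1 was far above the rest, library 2 was just above the PBS range and the other 3 lay at or within it, for a log2 difference of 0.39 ± 0.34 (SE; adjusted p = 0.496) by edgeR, and of 0.09 ± 0.24 (SE) without LLC library 1. At day 7 it stood at 432, 388, 421, 303 and 377 CPM in LLC libraries, against 297, 238, 295 and 294 CPM in PBS libraries. All 5 day 7 LLC libraries were above all 4 PBS libraries, for a log2 difference of 0.46 ± 0.11 (SE; adjusted p = 0.383) by edgeR, and DESeq2 was the 1 setting of 21 that called it, with adjusted p between 0.0274 and 1.00 over the settings.

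Saa3, the serum amyloid A gene whose promoter holds the C/EBP letters printed above, was scarce in most libraries. It stood at 50.1, 10.1, 0.347, 0.253 and 0.333 CPM in day 21 LLC libraries, against 0.241, 0.567, 0.717 and 2.09 CPM in day 21 PBS libraries. LLC libraries 1 and 2 were far above all others, and LLC libraries 3 to 5 lay inside the PBS range. The log2 difference was 3.73 ± 1.65 (SE; adjusted p = 0.213) by edgeR. In a fit of all libraries but day 21 LLC library 1, an alternative chosen after seeing the data, it was 1.57 ± 1.11 (SE; adjusted p = 0.336, edgeR). At day 7 Saa3 stood at 0.680, 4.40, 0.918, 4.38 and 2.32 CPM in LLC libraries, against 0.196, 0.0598, 0.739 and 1.11 CPM in PBS libraries, with overlap and a log2 difference of 2.25 ± 0.74 (SE; adjusted p = 0.459) by edgeR. Saa1, Saa2 and Saa4 are close relatives, so how the deposited counts divide shared reads bears on this value.

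Orm1, the orosomucoid gene, was lower in LLC fat at day 21 while the receptors, Stat3 and Socs3 were higher. It stood at 49.0, 55.7, 11.3, 27.3 and 56.1 CPM in day 21 LLC libraries, against 185, 239.7, 224 and 137 CPM in day 21 PBS libraries. The highest LLC library was below the lowest PBS library, at 56.1 and 137 CPM, for a log2 difference of -2.32 ± 0.42 (SE; adjusted p = 0.0613) by edgeR. At day 7 it stood at 189.6, 152, 132, 139 and 126 CPM in LLC libraries, against 193, 143, 175 and 138 CPM in PBS libraries, a log2 difference of -0.13 ± 0.14 (SE; adjusted p = 0.841). The day 7 groups overlapped over most of their range. Orm1, Orm2 and Orm3 are related genes, so how the deposited counts divide any shared reads is uncertain. Orm3 had a day 21 log2 difference of -1.90 ± 0.51 (SE; adjusted p = 0.0926, edgeR).

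Hepatocyte markers were lower beside Orm1 at day 21, and their part in the result was not tested. Of 9 hepatocyte markers 8 were tested at day 21, and 8 of 8 were lower in LLC, with a median log2 difference of -2.99. Alb, albumin, averaged 31.7 ± 20.9 CPM in day 21 LLC libraries and 124 ± 72.6 CPM in day 21 PBS libraries (SD, n = 5 and 4). Serpina1a, alpha-1-antitrypsin, averaged 0.742 ± 0.737 CPM in LLC libraries, and its log2 difference was -3.90 ± 0.95 (SE; adjusted p = 0.0780, edgeR). The sum of the 9 markers ran from 1845 to 5907 CPM in LLC and from 4070 to 5170 CPM in PBS, so the sums overlapped. The median sum was higher in LLC, at 4760 CPM, than in PBS, at 4516 CPM, unlike the single markers. Alb and Serpina1a were far below these sums, which were carried mainly by other genes of the list. The sums therefore say little about the named markers. No marker of the list was at 0 in all 18 libraries. Between day 21 and day 7 within LLC fat, 6 of the 9 markers were higher and 3 lower, with a median log2 difference of 0.11, while the log2 difference of Orm1 was -1.89. Within PBS fat, 9 of 9 were higher at day 21 than at day 7, with a median log2 difference of 4.26. edgeR called 4 of them and DESeq2 called 8, beside 3.21% and 7.94% of all genes. The log2 difference of Orm1 within PBS fat was 0.28 ± 0.34 (SE; adjusted p = 0.689, edgeR).

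By group mean, Il6st, Socs3, Stat3 and Cebpd ran in the same order as Osmr, from day 21 LLC through day 7 LLC and day 7 PBS to day 21 PBS. Neighbours in that order overlapped, except day 7 PBS and day 21 PBS for Il6st. Il6ra differed only in that day 7 PBS stood above day 7 LLC, and all of its neighbours overlapped. Lrg1 and Saa3 ran from day 21 LLC through day 7 LLC and day 21 PBS to day 7 PBS, with every neighbour overlapping. Cebpb had day 7 LLC and day 21 PBS at 128 ± 19.4 and 127 ± 38.6 CPM, above day 21 LLC and day 7 PBS at 83.7 ± 20.6 and 82.8 ± 21.1 CPM (SD, n = 5, 4, 5 and 4). Orm1 ran from day 21 PBS through day 7 PBS and day 7 LLC to day 21 LLC, and only the last step was free of overlap.

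The comparison over time sets day 21 beside day 7 within each treatment, and it shares its groups with the comparisons of LLC and PBS. Each day has its own libraries, so day cannot be told apart from any difference in age, harvest or sequencing run. Within LLC fat, 2 of the 10 genes passed edgeR, beside 1.77% of all genes, 5 had an unadjusted p under 0.05, beside 18.6%, and limma on log2(TPM + 1) called Orm1, beside 0.193%. DESeq2 called 2 as well, Stat3 and Orm1, beside 5.81% of all genes. Orm1 was lower at day 21, with a log2 difference of -1.89 ± 0.32 (SE; adjusted p = 0.0183, edgeR), and all 27 alternative settings called it. Its means were 39.9 ± 19.8 CPM at day 21 and 148 ± 25.4 CPM at day 7 (SD, n = 5 each). Stat3 averaged 202 ± 36.7 CPM at day 21 and 150.3 ± 13.9 CPM at day 7. Its log2 difference was 0.43 ± 0.11 (SE; adjusted p = 0.04998, edgeR), just inside the threshold. That call held in 7 of 27 settings, with adjusted p between 0.00517 and 0.255. It was lost without any 1 day 7 library, without any of day 21 PBS libraries 1 to 3 and without day 21 LLC library 4 or 5. Orm1 and Cebpb were the genes of the 10 whose LLC groups did not overlap between days, both lower at day 21, beside 3.33% of all genes.

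Within PBS fat 0 of the 10 genes passed edgeR, beside 3.21% of all genes, 4 had an unadjusted p under 0.05, beside 20.4%, and limma on log2(TPM + 1) called none, beside 3.0%. DESeq2 called 1, Osmr, beside 7.94% of all genes, and so did edgeR without day 21 PBS library 4, beside 12% of all genes. Osmr and Il6st were lower in every day 21 PBS library than in every day 7 PBS library, beside 16.3% of all genes without overlap. Osmr averaged 48.6 ± 6.68 CPM at day 21 and 65.2 ± 5.52 CPM at day 7 (SD, n = 4 each), a log2 difference of -0.42 ± 0.14 (SE; adjusted p = 0.0931, edgeR). Il6st averaged 294 ± 29.7 CPM at day 21 and 368 ± 22.6 CPM at day 7, a log2 difference of -0.32 ± 0.12 (SE; adjusted p = 0.149, edgeR). Within LLC fat the same step was 0.26 ± 0.12 for Osmr and 0.09 ± 0.11 for Il6st (log2, SE; adjusted p = 0.258 and 0.705, edgeR). Markers of other cell types also differed between the days within PBS fat, and their part in the result was not tested. Progenitor and fibroblast markers were lower at day 21 for 12 of 12, with a median log2 difference of -1.32 and 4 edgeR calls, and macrophage markers for 11 of 12, with 1 call. Mast cell markers were lower for 5 of 5, with 4 calls, and endothelial markers for 8 of 11, with 2 calls. The progenitor and fibroblast sum was 2886 to 18085 CPM in day 21 PBS libraries and 14463 to 22293 CPM in day 7 PBS libraries, and day 21 PBS library 4 held the 18085 CPM. Endothelial sums were 701 to 980.1 CPM in day 21 PBS libraries and 962 to 1168 CPM in day 7 PBS libraries.

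Whether the LLC difference itself changed between days was tested as the day 21 difference minus the day 7 difference. edgeR called 0 of the 10, beside 0.415% of all genes, 7 had an unadjusted p under 0.05, beside 18.2%, DESeq2 called 4, beside 5.2%, and limma on log2(TPM + 1) called none, beside 0.15%. The 4 that DESeq2 called were Osmr and Stat3, with a larger difference at day 21, and Cebpb and Orm1, with a lower one. Orm1 came nearest in edgeR, at -2.17 ± 0.47 (SE; adjusted p = 0.0534), then Cebpb, given above, then Osmr at 0.68 ± 0.18 (adjusted p = 0.0837) and Stat3 at 0.56 ± 0.16 (adjusted p = 0.0938). With the replicate number as a block, Orm1 alone was called (adjusted p = 0.0473, edgeR), beside 0.539% of all genes, where its adjusted p ran between 0.000777 and 0.132 over 27 settings. Without day 21 PBS library 4 edgeR called Osmr, Stat3, Cebpb and Orm1, beside 8.64% of all genes. Without day 21 LLC library 2 it called Osmr, Cebpb and Orm1, beside 2.65%. Without LLC library 1, 3 or 5 it called Orm1 alone, beside 1.2%, 0.251% and 0.753%. For Lrg1 the difference between days was -0.04 ± 0.37 (log2, SE), and for Saa3 it was 1.499 ± 1.86.

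Among the ligands, Il6, Osm and Il11 had few counts in most libraries, while Lif was detected in every library. Il6 had 19, 5, 11, 3 and 1 counts in day 21 LLC libraries, against 0, 2, 1 and 0 counts in day 21 PBS libraries, and 1, 6, 6, 0 and 3 counts in day 7 LLC libraries, against 2, 2, 0 and 0 counts in day 7 PBS libraries. A count of 0 allows up to 3 counts, for counting error only, which is 0.153 to 0.185 CPM in the libraries at 0. Osm, oncostatin M, had 31, 6, 38, 6 and 2 counts in day 21 LLC libraries, against 0, 4, 2 and 8 counts in day 21 PBS libraries. Lif, leukaemia inhibitory factor, had 106, 49, 57, 17 and 20 counts in day 21 LLC libraries, against 15, 25, 9 and 42 counts in day 21 PBS libraries. Il6 and Osm were highest in day 21 LLC libraries 1 and 3, the ranges overlapped, and Il11 had at most 5 counts in any library. Of 11 ligands listed, 6 had enough counts to be tested at each day, and edgeR fits of each day and DESeq2 called 0 of them at either day. The 18-library edgeR fit called 1 at day 21, beside 19.0% of all genes. At each day 1 of the 6 had an unadjusted p under 0.05, beside 23.3% of all genes at day 21 and 8.51% at day 7. It was Clcf1, cardiotrophin-like cytokine, with a log2 difference of 1.69 ± 0.66 at day 21 and 0.70 ± 0.28 at day 7 (SE; adjusted p = 0.171 and 0.555, edgeR). The day 21 value of Clcf1 ran between 0.40 and 1.94 over 21 alternative settings, and 2 of them called it.

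Other genes of the pathway were described as 7 lists, and edgeR fits of each day called no gene of these lists. At day 21, 23.3% of all genes had an unadjusted p under 0.05, DESeq2 called 11.4% and the 18-library edgeR fit 19.0%, and the list counts below stand beside those shares. Outside the 10, the 18-library fit called 1 receptor chain, 1 gene of the Janus kinases and STAT factors, 3 inhibitors as higher and 1 as lower, 4 STAT3 response genes, 2 C/EBP genes, and 4 acute phase genes as higher and 4 as lower. Among the 5 other receptor chains 4 were tested at day 21, with 2 higher and 2 lower, and DESeq2 called 1 of them. Lifr, the receptor chain for leukaemia inhibitory factor, was at 115 ± 6.58 CPM in day 21 LLC and 88.3 ± 10.6 CPM in day 21 PBS (SD, n = 5 and 4), a log2 difference of 0.36 ± 0.11 (SE; adjusted p = 0.104, edgeR). Il27ra, a receptor chain for interleukin-27, was the 1 other receptor with no overlap at day 7, at 4.00 ± 0.568 CPM in LLC and 2.41 ± 0.1997 CPM in PBS. At that day 1.18% of all genes were higher without overlap. DESeq2 called Il27ra at day 7, beside 0.692% of all genes. Of the 10 other Janus kinases and STAT factors, 5 were higher and 5 lower at day 21, and DESeq2 called 1, Stat5a, beside 11.4% of all genes. Stat2, which acts in the response to type I interferon, differed by 0.60 ± 0.18 at day 7 (log2, SE; adjusted p = 0.413, edgeR). Of the 12 inhibitors other than Socs3, 9 were higher and 3 lower at day 21, with a median log2 difference of 0.07, 4 unadjusted p under 0.05 and 3 DESeq2 calls, beside 23.3% and 11.4% of all genes. Ptpn2, a phosphatase of JAK and STAT proteins, differed by 0.57 ± 0.14 and Pias1, an inhibitor of activated STAT proteins, by 0.41 ± 0.14, while Ptpn11, the phosphatase SHP2, differed by -0.45 ± 0.13 (log2, SE; adjusted p = 0.0807, 0.130 and 0.101, edgeR).

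STAT3 response genes, known to be induced by STAT3 in other settings, were mostly higher in LLC fat. Of 14 such genes, 11 stood above 0 at day 21, with a log2 median of 0.95, and 13 at day 7, with a log2 median of 0.50, beside 51.9% and 51.1% of all genes above 0. edgeR fits of each day called none. Unadjusted p-values were under 0.05 for 4 genes at day 21 and 6 at day 7, all higher, beside 23.3% and 8.51% of all genes. DESeq2 made 4 calls at day 21 and 1 at day 7, beside 11.4% and 0.692%. Icam1, an adhesion molecule, differed by 1.27 ± 0.29 at day 21 and 0.37 ± 0.16 at day 7 (log2, SE; adjusted p = 0.0751 and 0.578, edgeR). Il4ra, the interleukin-4 receptor, differed by 1.27 ± 0.36 and 0.72 ± 0.18 at the same days (adjusted p = 0.0998 and 0.383, edgeR). Bcl3, a nuclear regulator of NF-κB, differed by 1.31 ± 0.40 and 0.56 ± 0.17 (adjusted p = 0.112 and 0.408, edgeR), and Junb, a part of AP-1, by 0.97 ± 0.32 at day 7 (adjusted p = 0.459, edgeR). Immediate early genes, which can follow tissue handling and share Fos with this list, were higher in LLC for 4 of 12 at day 21 and for 12 of 12 at day 7. Their summed level was 227 to 310.2 CPM in day 21 LLC libraries. It was 764 CPM in day 21 PBS library 2 and 175 to 254 CPM in the other day 21 PBS libraries. It was 221 to 617 CPM in day 7 LLC libraries and 202 to 322 CPM in day 7 PBS libraries, and their part in the result was not tested.

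Of the C/EBP family other than Cebpb and Cebpd, 3 genes were tested at day 21 and all 3 were lower in LLC, 2 with an unadjusted p under 0.05 and 1 called by DESeq2, beside 23.3% and 11.4% of all genes. Cebpa, the C/EBP factor of mature fat cells, averaged 489 ± 122 CPM in day 21 LLC libraries and 722 ± 34.1 CPM in day 21 PBS libraries (SD, n = 5 and 4), a log2 difference of -0.58 ± 0.19 (SE; adjusted p = 0.124, edgeR). Cebpg differed by -0.27 ± 0.10 (adjusted p = 0.157, edgeR). Cebpd was thus the 1 of 5 tested C/EBP genes that was higher in day 21 LLC.

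Acute phase genes did not move one way. Of the 27 other genes of this list, 21 were tested at day 21, with 10 higher and 11 lower and a median log2 difference of -0.06, 8 unadjusted p under 0.05 and 4 DESeq2 calls, beside 23.3% and 11.4% of all genes. Lcn2, lipocalin 2, which binds bacterial siderophores, averaged 18.3 ± 24.4 CPM in day 21 LLC and 1.04 ± 0.418 CPM in day 21 PBS (SD, n = 5 and 4), a log2 difference of 4.12 ± 1.04 (SE; adjusted p = 0.0809, edgeR). At day 7 Lcn2 averaged 4.47 ± 4.74 CPM in LLC and 1.09 ± 0.115 CPM in PBS, a log2 difference of 2.02 ± 0.75 (adjusted p = 0.531, edgeR). Serping1, the C1 inhibitor of complement, averaged 468 ± 51.5 CPM in day 21 LLC and 147 ± 120 CPM in day 21 PBS, a log2 difference of 1.65 ± 0.43 (adjusted p = 0.0892, edgeR). Of the genes that were lower at day 21, 4 had an unadjusted p under 0.05, Orm3, given above, and 3 named after their values were seen. Fga, the fibrinogen alpha chain, differed by -3.95 ± 1.53, Orm2 by -1.38 ± 0.56 and Steap4, a metalloreductase, by -0.91 ± 0.36 (log2, SE; adjusted p = 0.168, 0.181 and 0.171, edgeR).

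**Figure D3:**
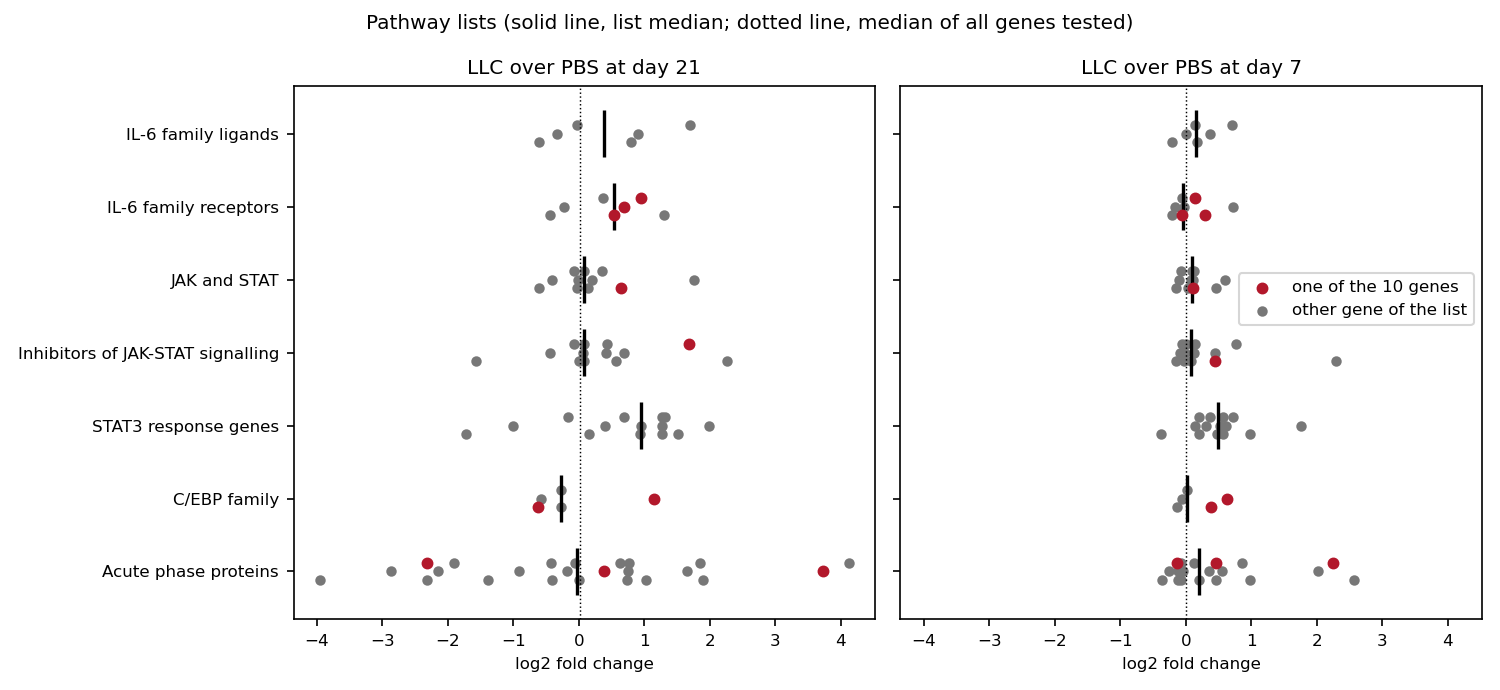
Log2 fold change of LLC over PBS (x axis) for every tested gene of 7 pathway lists (y axis), at day 21 (left) and day 7 (right), with red points for the 10 genes, grey points for the others, solid lines at list medians and a dotted line at the median of all genes tested. The median of the STAT3 response genes is 0.95 at day 21 and 0.50 at day 7, while that of the acute phase proteins is -0.03 at day 21 and 0.20 at day 7.

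Cell type markers differed between the same groups, and their part in the results was not tested. The summed level of 12 neutrophil markers, cells that carry Lrg1 and Lcn2, ran from 30.2 to 77.6 CPM in day 21 LLC libraries and from 6.00 to 13.9 CPM in day 21 PBS libraries, without overlap. At day 7 the same sum ran from 29.4 to 71.8 CPM in LLC and from 21.99 to 40.3 CPM in PBS. The neutrophil genes S100a8 and S100a9 averaged 5.80 ± 7.04 and 9.18 ± 9.14 CPM in day 21 LLC libraries and 0.504 ± 0.311 and 0.375 ± 0.445 CPM in day 21 PBS libraries (SD, n = 5 and 4). Mast cell markers, 5 genes, summed to 71.2 to 138 CPM in day 21 LLC and 17.9 to 35.9 CPM in day 21 PBS, and edgeR called 4 of the 5 as higher. Endothelial markers, 11 genes, summed to 987 to 1587 CPM in day 21 LLC and 701 to 980.1 CPM in day 21 PBS, without overlap. Of these, 10 of 11 were higher in LLC. edgeR called 1 and DESeq2 called 7 as higher, beside 0.0885% and 11.4% of all genes. Macrophage markers, 12 genes, summed to 1091 to 3600 CPM in day 21 LLC, and to 329 to 497 CPM in day 21 PBS libraries 1 to 3 but 2654 CPM in library 4. Adipocyte markers, 13 genes, were lower in day 21 LLC for 10 and higher for 3, with a median log2 difference of -0.22. edgeR called 0 of them and DESeq2 called 3 as lower, beside 0.0885% and 11.4% of all genes. Their sum ran from 22320 to 60331 CPM in day 21 LLC and from 36573 to 45185 CPM in day 21 PBS, with overlap. No marker of these lists was at 0 in all 18 libraries.

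Day 21 PBS library 4, which stood apart in progenitor and macrophage markers, moved the count of calls at day 21 more than any other single library left out. Without it edgeR called 6 of the 10 genes at day 21, Osmr, Il6ra, Socs3, Stat3 and Cebpd as higher and Orm1 as lower, beside 9.3% of all genes. Without it and day 21 LLC libraries 1 and 3, edgeR called 5 of the 10, the same genes but Cebpd, beside 7.18% of all genes. In those 6 libraries the log2 differences were 1.07 ± 0.16 for Osmr, 1.19 ± 0.20 for Socs3, 0.79 ± 0.16 for Stat3, 0.99 ± 0.21 for Il6ra and -2.23 ± 0.30 for Orm1 (SE). In the 18-library fit, by alternatives chosen after seeing the data, 8 of the 10 were called without day 21 PBS library 4, beside 28.2% of all genes, and 7 without day 21 LLC library 1, beside 17.8%. The log2 difference of Osmr ran between 0.88 and 1.09 over all 21 alternative settings at day 21.

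**Figure D4:**
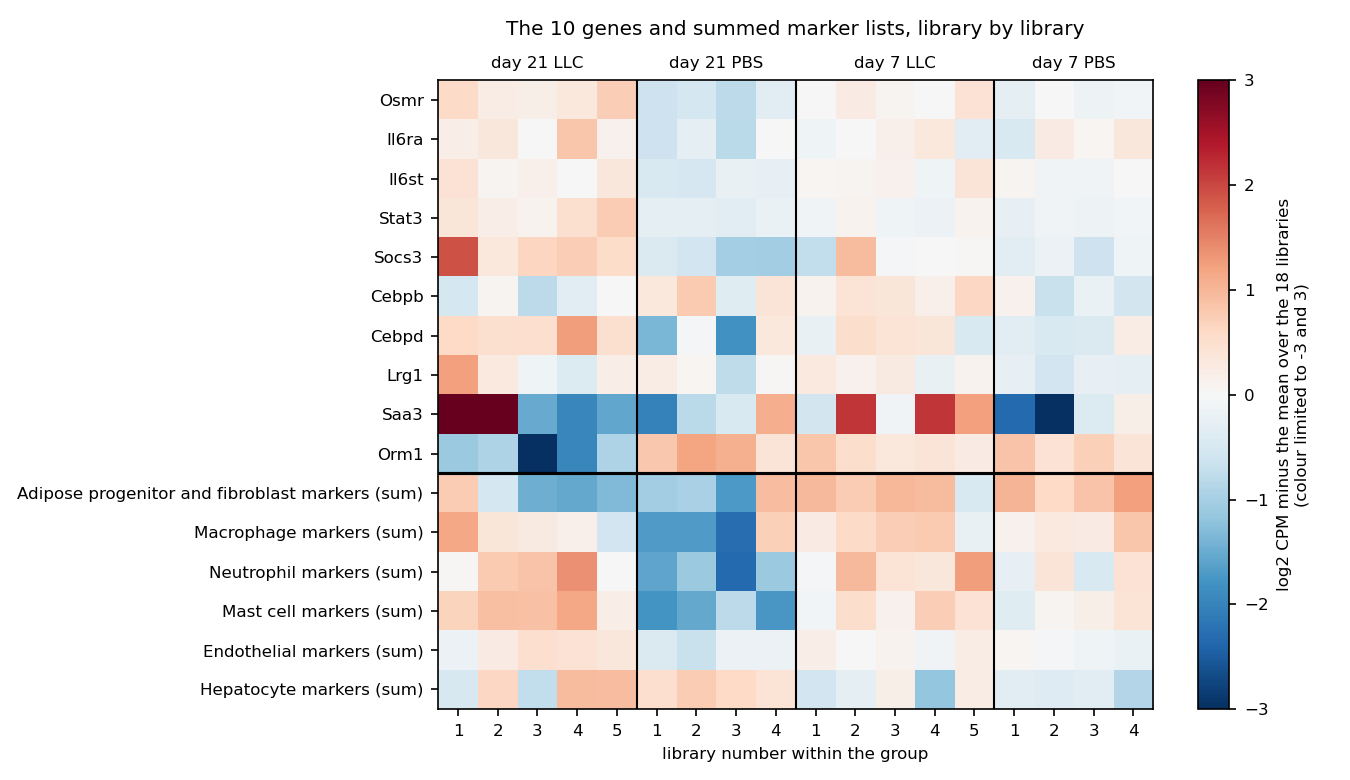
Log2 CPM minus the mean over the 18 libraries (colour) for the 10 genes, above the line, and for summed marker lists, below it, in every library (x axis) of day 21 LLC, day 21 PBS, day 7 LLC and day 7 PBS. Osmr and Stat3 are red in the day 21 LLC libraries and blue in the day 21 PBS libraries, while the progenitor and fibroblast sum is high in LLC library 1 and PBS library 4 and low in the other day 21 libraries.

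Over the 18 libraries, genes share group, depth and tissue make-up. Among 13964 genes, those whose log2(CPM + 1) most resembled that of 3 members were found by Pearson correlation over these libraries. For Osmr these were Ppig (r = 0.901), Sele, which encodes E-selectin of activated endothelium (r = 0.888), Stat3 (r = 0.884), N4bp1 (r = 0.883) and Selp, which encodes P-selectin (r = 0.868). For Socs3 they were Kcnh1 (r = 0.889), Mcm4, a subunit of the replication helicase (r = 0.870), Tmpo (r = 0.866), Ssrp1 (r = 0.865) and Chd1 (r = 0.863). For Lrg1 they were Ccbe1 (r = 0.884), Resf1 (r = 0.854), Tnfrsf1a, a receptor for tumour necrosis factor (r = 0.816), Ttc21b (r = 0.805) and Sbno2 (r = 0.803).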

How the data were processed

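RNA of inguinal fat was measured by poly(A) sequencing in 18 libraries, each named for a day and a treatment in the labels. The submitters' processing notes name fastp 0.23.0, a read trimmer, RSEM, a transcript quantifier, and the build mm10 (GRCm38), and no source used here names the aligner. The authors deposited expected counts per gene, as whole numbers, and TPM values, in 1 table per day. Each table also holds the authors' log2 fold changes, made from mean TPM, and their p-values and FDR, by a tool that no source used here names.

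Counts of each day were tested with edgeR 4.0.16 (R 4.3.3; TMM scaling, filterByExpr, quasi-likelihood test, Benjamini-Hochberg adjustment over all genes tested, 0.05, two-sided). Comparisons over time and the difference between days used 1 fit of all 18 libraries with 4 group means. The SE of an edgeR log2 difference was its absolute value divided by the square root of the F statistic of the quasi-likelihood test. DESeq2 1.42.0 and limma 3.58.1 on log2(TPM + 1) and log2(TPM + 0.1) were alternatives, with other filters, scalings and left-out libraries. The tests were tried on simulated counts first. Of the gene rows, 30 had no symbol.

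The 10 genes and all gene lists were chosen with earlier results of these data known. Named outside the 10 were 4 ligands, up to 4 genes per list with the smallest p within a day, and the 5 genes most like Osmr, Socs3 and Lrg1; some genes that meet this rule are not reported here. Libraries of LLC and PBS share replicate numbers in the labels. At day 7 deviations from group means were positively correlated between same-numbered libraries (r = 0.207, 0.120, 0.531 and 0.190 for numbers 1 to 4). LLC libraries 1 and 2 nevertheless correlated more with PBS libraries 2 and 4. The pair numbered 3, with the highest r, were the day 7 libraries highest in muscle markers. At day 21 r was -0.273, 0.302, 0.0925 and -0.158, and LLC libraries 1 to 4 each correlated most with a PBS library of another number. Total counts of 14566155 to 18969387 leave genes with a few counts poorly measured.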

Additional observations from a re-analysis of the deposited data

Results flagged for a closer look

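Each of the 10 genes was checked in each of the 4 groups for a library far from the others of its group, by Dixon's test at the 95% level. Of 40 gene and group pairs 5 were picked out, and chance alone picks about 1 in 20. Socs3 stood at 45.5 CPM in day 21 LLC library 1, the highest of its group. Saa3 stood at 50.1 CPM in the same library. Cebpd stood at 107 CPM in day 21 LLC library 4, where the other 4 lay between 63.1 and 68.1 CPM. It stood at 53.1 CPM in day 7 PBS library 4, above the other 3. Lrg1 stood at 238 CPM in day 7 PBS library 2, the lowest of its group. Why these libraries differ was not tested.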

How the results depend on the processing

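Over all alternatives for the 10 genes, 1120 values kept their direction and side of the threshold, 67 passed it newly, 20 lost it and 20 changed sign, all 20 for values not called. The counts of the 10 genes called moved with the tool and with single libraries, and the cause was not tested. For LLC against PBS at day 21 the count of 0 became 6 with DESeq2, 1 with limma on log2(TPM + 1) or log2(TPM + 0.1), 7 in 1 fit of all 18 libraries, and 0 to 6 leaving out 1 library, the 6 without PBS library 4. It was 5 without day 21 PBS 4, LLC 1 and LLC 3, and, chosen after seeing the data, 7 in the 18-library fit without day 21 LLC 1 and 8 without day 21 PBS 4, beside 17.8% and 28.2% of all genes. At day 7 it was 2 with DESeq2. For the difference between days it was 4 with DESeq2, 0 to 4 leaving out 1 library and 4 without the 3 libraries. Within LLC over time the count of 2 was 1 with DESeq2 size factors, no filter on low counts, the robust fit or either limma fit, and 1 to 2 leaving out 1 library. Within PBS it was 1 with DESeq2, 0 to 1 leaving out 1 library and 1 without the 3 libraries. Leaving out 1 library, edgeR's calls over all genes ran from 0 to 1277 at day 21, 0 to 3 at day 7, 6 to 1222 for the difference, 15 to 1036 within LLC and 41 to 1692 within PBS, beside 12, 1, 58, 248 and 449. At day 21 Saa3 was too low to be tested in 3 of its 21 settings.

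Values that changed sign were smaller than their standard errors under those settings. Leaving out 1 library, Il6ra at day 7 ran from -0.193 to 0.0444, Lrg1 from -0.405 to 0.0966 for the difference between days and from -0.117 to 0.366 within LLC, Saa3 from -0.68 to 2.33 for the difference and from -0.0673 to 1.43 within PBS, and Cebpd from -0.651 to 0.0135 within PBS (log2). Without the 3 libraries, Lrg1 within LLC was -0.0547 and Saa3 within PBS -0.0545. In the limma fits the difference for Lrg1 was 0.0364 and 0.0363 at the pseudocounts 1 and 0.1, that for Saa3 was -0.26 and -0.96, and Saa3 within LLC was -0.19 at the smaller pseudocount. In the limma fit of log2(TPM + 1), which changes both the scale and the model, the median log2 value of all genes was 0.13 at day 21 and -0.17 within PBS, beside 0.02 and 0.01, with 56 genes called higher and 5 lower at day 21, beside 9 and 3 in edgeR.

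With the replicate number as a block, the count for the difference between days was 1, Orm1, and that within LLC over time was 1, also Orm1, with no other change in the counts of the 10. Il6ra at day 7 was 0.0432 in the blocked fit. At day 7 and at day 21 the labels give only a shared number, so the block carries no known pairing.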
